A study of Mus musculus with 8 samples.

Results

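The core thermogenic genes of brown fat, namely Ucp1, Cidea, Elovl3, Dio2, Ppargc1a, Ppargc1b, Ucp2 and Ucp3, were followed in the brown fat of mice without and with an intact Prdm16 gene. They were found as the non-control probes whose gene name on the array is one of these symbols, which gave 8 of the 31829 gene names on the array and 10 of its 39429 probes. Ucp3 and Ppargc1a had 2 probes each. The labels give 4 groups of 4 samples: Prdm16 KO and WT tissue of 6-week-old mice, and Prdm16 KO and WT tissue of 11-month-old mice. Each of the 8 arrays carried 1 KO and 1 WT sample of the same age in different dyes. KO RNA was in Cy3 on replicates 1 and 2 and in Cy5 on replicates 3 and 4 at 6 weeks, and in Cy5 on replicates 1 and 2 and in Cy3 on replicates 3 and 4 at 11 months. The labels call the samples biological replicates. The way Prdm16 was deleted, the cells it was deleted in and any Cre driver are not stated in the labels. Each age was a run of its own, so age and run cannot be told apart.

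Brown adipocytes make heat when noradrenaline, released by sympathetic nerves, acts on beta-adrenergic receptors and raises cyclic AMP, which drives lipolysis and a set of thermogenic genes. UCP1 sits in the inner mitochondrial membrane and lets protons return without making ATP, so that the energy of fatty acid oxidation is released as heat. DIO2 converts thyroxine into the active hormone T3 inside the cell, PGC-1alpha (Ppargc1a) is a coactivator induced by cold and cyclic AMP that raises mitochondrial genes and Ucp1, and Prdm16 encodes a transcriptional regulator known for its part in the identity of brown fat.

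The 3 uncoupling protein genes are paralogs, so the probe sequences that tell them apart are shown. Each is a 60-base probe on the plus strand of mouse build mm9, printed 5′ to 3′ from the scanner files in lower case with no stretch singled out. They lie at chr8:85821788-85821847 (Ucp1), chr7:107647809-107647868 (Ucp2) and chr7:107630399-107630458 (Ucp3, probe A_66_P108247).
Ucp1: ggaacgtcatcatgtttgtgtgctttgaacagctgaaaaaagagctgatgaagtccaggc
Ucp2: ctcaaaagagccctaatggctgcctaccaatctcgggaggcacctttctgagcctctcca
Ucp3: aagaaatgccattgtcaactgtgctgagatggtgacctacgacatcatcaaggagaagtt
In the best ungapped match over at least 20 bases, the Ucp1 and Ucp2 probes shared 17 of 60 bases, the Ucp1 and Ucp3 probes 25 of 59 and the Ucp2 and Ucp3 probes 22 of 47. Within these 3 alignments the longest run of matching bases was 5, between Ucp2 and Ucp3. Runs at other alignments were not counted and can be longer. The second Ucp3 probe (A_52_P380379) lies at chr7:107634291-107634350. Exon and UTR annotation of mm9 was not used here.

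Values below are log2 ratios of KO over WT, with per-array ratios given before adjustment for dye. A fitted value comes from limma with 1 coefficient per age and 1 for dye that both ages share (± SE, n = 4 arrays per age). A probe was called at a Benjamini-Hochberg adjusted p below 0.05 over the 26905 probes kept. Levels are normalized log2 intensities of one channel, to be compared within a probe only. All 10 probes were well above background in every sample and passed the filter on dim probes, and no spot was saturated. Of all probes tested, 14.7% were called at 6 weeks, with 8.58% higher and 6.14% lower in KO. At 11 months 39.9% were called, with 20.7% higher and 19.3% lower in KO. Between the ages the KO-over-WT ratio differed in 20.4%, higher at 11 months in 9.3% and lower in 11.1%. Median centring of each array in place of loess moved the median of all probes to 0.07 at 6 weeks and 0.17 at 11 months, and the share of calls that were higher in KO to 79.1% and 76.5%, against 58.3% and 51.7% with loess. Across probes, which are not independent replicates, the correlation of dye-adjusted ratios between 2 arrays was 0.454 to 0.662 within the 6-week-old set and 0.691 to 0.892 within the 11-month-old set. On the 11-month-old array 3, local background read up to 16109 in Cy5 and 48914 in Cy3 in 9 readings, against medians of 55 and 25. These were replaced by the medians. With them in place, 9074 probes were called at 11 months in place of 10746.

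The probe of Prdm16 (A_55_P1963547) gave -0.39, 0.06, -1.09 and -0.88 at 6 weeks and -0.96, -0.18, -0.76 and -0.42 at 11 months. Its fitted value was -0.58 ± 0.17 at 6 weeks (adjusted p = 0.062) and -0.58 ± 0.17 at 11 months (adjusted p = 0.0294). The later call was lost on leaving out array 1, 3 or 4 of that age (adjusted p = 0.117, 0.131 and 0.0811). Median centring gave -0.24 there (adjusted p = 0.308). The 6-week-old array 2 did not show a lower KO signal. The labels do not say whether the probe lies inside the deletion.

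Ucp1, the uncoupling protein itself, did not pass the test at 6 weeks and was 17.7-fold lower in KO tissue at 11 months. At 6 weeks its level was 17.62, 17.88, 17.53 and 17.75 in KO samples and 17.30, 17.48, 17.80 and 17.66 in WT samples. The 2 genotypes overlapped there, with ratios of 0.31, 0.40, -0.28 and 0.10 and a fitted value of 0.13 ± 0.50 (adjusted p = 0.888). The 11-month level was 15.61, 15.39, 11.92 and 14.83 in KO samples and 18.68, 18.85, 18.53 and 18.29 in WT samples. Every KO sample lay below every WT sample, and the KO sample of array 3 lay far below the other KO samples, while the 4 WT samples lay close together. Ratios were -3.07, -3.46, -6.61 and -3.46, and the fitted value was -4.15 ± 0.50 (adjusted p = 0.000578). Only 2 of the 26905 probes had a lower fitted value at 11 months. Without array 3 the fitted value was -3.30 ± 0.14 (adjusted p = 8.55e-05). In a bulk sample, fewer brown adipocytes and less Ucp1 mRNA per cell cannot be told apart.

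**Figure D1:**
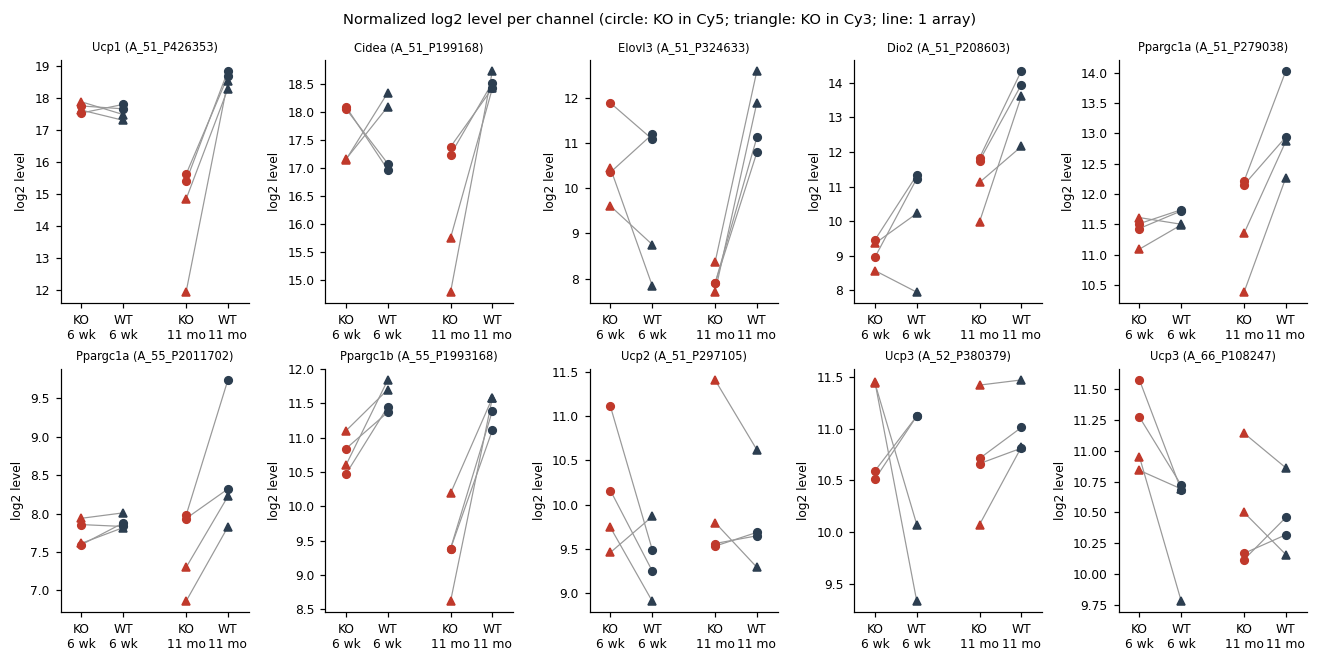
Normalized log2 level of each thermogenic probe in the KO (red) and WT (dark) channel of every array, at 6 weeks and 11 months. Lines join the 2 channels of 1 array, circles mark arrays with KO in Cy5 and triangles those with KO in Cy3; the y axes differ between probes. For Ucp1 at 11 months the KO samples sit between 11.92 and 15.61 and the WT samples between 18.29 and 18.85.

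Cidea, which encodes a lipid droplet protein abundant in brown fat, was not called at 6 weeks, was lower at 11 months and carried a large dye effect. Its probe (A_51_P199168) gave -1.19, -0.94, 0.98 and 1.13 at 6 weeks, negative with KO in Cy3 and positive with KO in Cy5. The dye coefficient (Cy5 over Cy3) was 1.07 ± 0.12 (adjusted p = 0.00949). With it removed the 6-week-old ratios were -0.13, 0.13, -0.09 and 0.07, and the fitted value was -0.0036 ± 0.18 (adjusted p = 0.992). Its 11-month level was 17.38, 17.24, 14.78 and 15.75 in KO samples and 18.43, 18.53, 18.74 and 18.43 in WT samples. No KO sample reached the WT range, and the 2 lowest KO samples were those in Cy3. The dye-adjusted ratios were -2.12, -2.36, -2.89 and -1.61, and the fitted value was -2.24 ± 0.18, or 4.74-fold lower (adjusted p = 0.000104).

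Elovl3, a fatty acid elongase induced by cold in brown fat, varied widely between arrays at 6 weeks and was lower on every array at 11 months. Its probe (A_51_P324633) lies at chr19:46209762-46209821 of mm9. At 6 weeks the level was 10.44, 9.61, 10.35 and 11.88 in KO samples and 7.85, 8.76, 11.19 and 11.08 in WT samples. The WT samples alone spanned over 3 log2 units, in which all KO samples but 1 also lay. Ratios were 2.59, 0.85, -0.85 and 0.81, with a fitted value of 0.85 ± 0.48 (adjusted p = 0.279). In 11-month-old mice the level was 7.90, 7.90, 7.70 and 8.36 in KO samples and 10.79, 11.12, 11.89 and 12.59 in WT samples. The KO samples were close together and well below every WT sample. Ratios were -2.90, -3.22, -4.18 and -4.23, with a fitted value of -3.63 ± 0.48, or 12.4-fold lower (adjusted p = 0.000901). The scanner software's own ratio put it at -4.27 (adjusted p = 0.00106).

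Dio2, the deiodinase that makes T3 inside the brown adipocyte, was lower in 3 of 4 KO samples at 6 weeks and in 4 of 4 at 11 months. Its probe (A_51_P208603) lies at chr12:91963235-91963294 of mm9, minus strand. At 6 weeks the level was 8.57, 9.35, 9.45 and 8.95 in KO samples and 7.94, 10.22, 11.33 and 11.23 in WT samples. The KO samples were alike and array 1 alone had the WT sample below its KO sample, so that the ranges overlapped. Ratios were 0.62, -0.87, -1.87 and -2.28, and the fitted value of -1.10 ± 0.46 was not called (adjusted p = 0.152). At 11 months the level was 11.83, 11.75, 11.12 and 9.98 in KO samples and 14.35, 13.95, 12.16 and 13.62 in WT samples. No KO sample reached the WT range. Ratios were -2.52, -2.20, -1.03 and -3.64, and the fitted value was -2.35 ± 0.46, or 5.10-fold lower (adjusted p = 0.00549). Array 4 carried the lowest ratio, and without it the fitted value was -1.64 ± 0.27 (adjusted p = 0.0042).

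Ppargc1a, the cold-inducible coactivator, did not pass at 6 weeks and was lower by both of its probes at 11 months. The brighter probe (A_51_P279038, chr5:51848928-51848987 of mm9, minus strand) gave -0.40, 0.11, -0.24 and -0.29 at 6 weeks, with a fitted value of -0.20 ± 0.17 (adjusted p = 0.48). Its level at 11 months was 12.21, 12.15, 10.38 and 11.35 in KO samples and 14.03, 12.94, 12.27 and 12.87 in WT samples. The lowest WT sample lay just above the highest KO sample. Ratios were -1.82, -0.79, -1.89 and -1.52, and the fitted value was -1.50 ± 0.17, or 2.84-fold lower (adjusted p = 0.000496). The dimmer probe (A_55_P2011702, chr5:51846926-51846985) gave ratios of -1.76, -0.39, -0.97 and -0.93 at 11 months, with a fitted value of -1.01 ± 0.19 (adjusted p = 0.00424). At 6 weeks that probe stood at -0.13 ± 0.19 (adjusted p = 0.678). The brighter probe was the lower of the pair in 4 of 4 arrays at 11 months, by 0.49 ± 0.36 (SD, n = 4; two-sided exact sign-flip p = 0.125, the smallest that 4 arrays allow). The scanner software's own ratio reversed that order, with -1.62 for the dimmer probe (adjusted p = 0.00126) and -1.55 for the brighter one (adjusted p = 0.000713). The 11-month level of the dimmer probe ran from 6.86 to 7.98 in KO and 7.83 to 9.74 in WT samples, so that the genotypes overlapped.

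Ppargc1b, the related coactivator PGC-1beta, was lower on 4 of 4 arrays at 6 weeks, just short of a call, and lower again at 11 months. Its probe (A_55_P1993168) gave a level of 10.60, 11.10, 10.47 and 10.84 in KO samples and 11.84, 11.70, 11.45 and 11.37 in WT samples at 6 weeks. The 2 genotypes did not overlap. Ratios were -1.25, -0.59, -0.97 and -0.52, and the fitted value was -0.83 ± 0.23 (adjusted p = 0.0512). It was called in 6 of 20 alternative settings, with adjusted p from 0.0108, where the faulty background readings of 11-month-old array 3 were kept, to 0.215 over all settings. Its level at 11 months was 9.39, 9.38, 8.62 and 10.19 in KO samples and 11.39, 11.11, 11.58 and 11.58 in WT samples. Every KO sample again lay below every WT sample. Ratios were -2.002, -1.72, -2.96 and -1.39, and the fitted value was -2.02 ± 0.23, or 4.05-fold lower (adjusted p = 0.000487).

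Ucp2, an uncoupling protein homologue found in many tissues and prominent in macrophages and other immune cells, was not called at either age. Its level at 6 weeks was 9.74, 9.46, 11.11 and 10.16 in KO samples and 8.91, 9.87, 9.49 and 9.25 in WT samples. KO was the higher on 3 of 4 arrays, with ratios of 0.83, -0.41, 1.62 and 0.91 and a fitted value of 0.74 ± 0.30 (adjusted p = 0.14). Without 6-week-old array 2 the fitted value was 1.17 ± 0.22 (adjusted p = 0.0331). At 11 months the level was 9.53, 9.56, 11.41 and 9.80 in KO samples and 9.69, 9.65, 10.62 and 9.29 in WT samples. Array 3 was the highest in both genotypes. Ratios were -0.16, -0.09, 0.79 and 0.51, with a fitted value of 0.26 ± 0.30 (adjusted p = 0.526). Beside it, the median ratio of 16 macrophage and myeloid markers on the same 4 arrays was 0.13, 0.14, 1.73 and 0.65. At 11 months 13 of the 16 rose, where 20.7% of all probes were called higher. Their median level there ran from 9.93 to 11.42 in KO and 9.32 to 9.72 in WT samples. At 6 weeks, where that median was 0.30, 0.11, -0.03 and -0.21, 1 of 16 rose, near the 8.58% of all probes called higher. The part of such cells in the Ucp2 signal was not tested.

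Ucp3, the homologue of brown fat and skeletal muscle, was called at 6 weeks by 1 of its 2 probes. Probe A_66_P108247 had a level of 10.95, 10.84, 11.57 and 11.27 in KO samples and 9.78, 10.69, 10.68 and 10.72 in WT samples. All KO samples lay above all WT samples, by little on array 2, and the WT sample of array 1 lay apart. Ratios were 1.17, 0.14, 0.89 and 0.55, and the fitted value was 0.69 ± 0.17, or 1.61-fold higher (adjusted p = 0.034). The call was lost on leaving out 1 array, with adjusted p = 0.159, 0.13 and 0.0957 when that was array 1, 3 or 4 at 6 weeks, and adjusted p = 0.0605 when it was array 2 at 11 months. It was also lost in a model of the 6-week-old arrays only (adjusted p = 0.0636) and with the scanner software's ratio (adjusted p = 0.0503). The brighter probe A_52_P380379 gave 2.13, 1.37, -0.53 and -0.61, positive with KO in Cy3 and negative with KO in Cy5, and a fitted value of 0.59 ± 0.35 (adjusted p = 0.299). At 11 months the first probe stood at 0.03 ± 0.17 (adjusted p = 0.9) and the second at -0.32 ± 0.35 (adjusted p = 0.51). The ratios of the first there were -0.34, -0.15, 0.28 and 0.34, and those of the second -0.30, -0.15, -0.75 and -0.06, below 0 on all 4 arrays. Over the 8 arrays the probes differed by -0.22 ± 0.97 (A_52_P380379 minus A_66_P108247, SD; two-sided exact sign-flip p = 0.484).

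Muscle markers varied strongly between samples and are given beside Ucp3. None of 20 was called at either age by limma, and 1 had an unadjusted p below 0.05 at 6 weeks and 0 at 11 months. Their median ratio was 0.06, -2.71, 2.45 and -3.12 on the 6-week-old arrays and -0.48, -1.19, -0.37 and 1.69 on the 11-month-old arrays, so that no age had one sign on all arrays. Their median level ran from 7.49 to 9.56 in KO and 7.23 to 12.01 in WT samples at 6 weeks, and from 10.60 to 14.96 in KO and 11.47 to 13.93 in WT samples at 11 months. With that median as a covariate, chosen after seeing the data, limma called no muscle coefficient of a thermogenic probe. The coefficients of Ucp2 and of Ucp3 probe A_66_P108247 were 0.23 ± 0.09 and 0.13 ± 0.05 per log2 unit (adjusted p = 1 for both), and these 2 alone had an unadjusted p below 0.05.

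**Figure D2:**
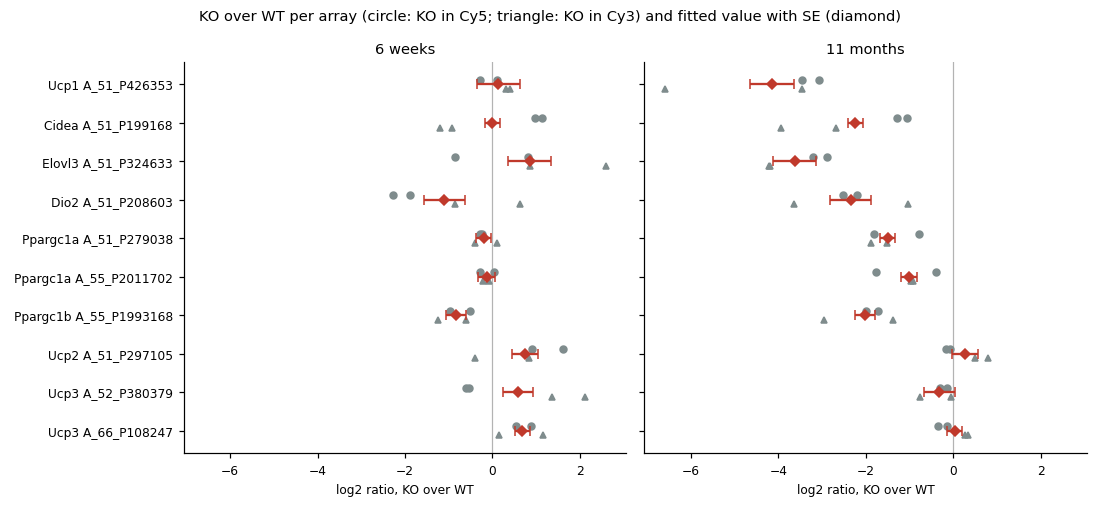
Log2 ratio of KO over WT for each thermogenic probe at 6 weeks (left) and 11 months (right). Grey circles are arrays with KO in Cy5, grey triangles arrays with KO in Cy3, and red diamonds with bars are fitted values ± SE (n = 4 arrays). At 11 months the values of Ucp1, Cidea, Elovl3, Dio2, Ppargc1a and Ppargc1b lie below 0 on every array. So do those of Ucp3 probe A_52_P380379, which was not called, while those of Ucp2 and of the other Ucp3 probe lie on both sides of 0.

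By its brightest probe, none of the 8 genes was called at 6 weeks by limma, where 14.7% of all probes were, and the median of the 8 fitted values was 0.07. Unadjusted p was below 0.05 there for Ucp2 (0.0406), Dio2 (0.046) and Ppargc1b (0.00763). At 11 months 6 of the 8 were called lower, where 19.3% of all probes were, and none was called higher. The median of the 8 was then -2.13, and that of all probes 0.01. The 6 were called lower at 11 months in each of the alternative settings tried, with fitted values for Ucp1 between -4.56 and -3.30 and for Cidea between -2.50 and -1.85. Neither direction nor call changed in these 6.

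**Figure D3:**
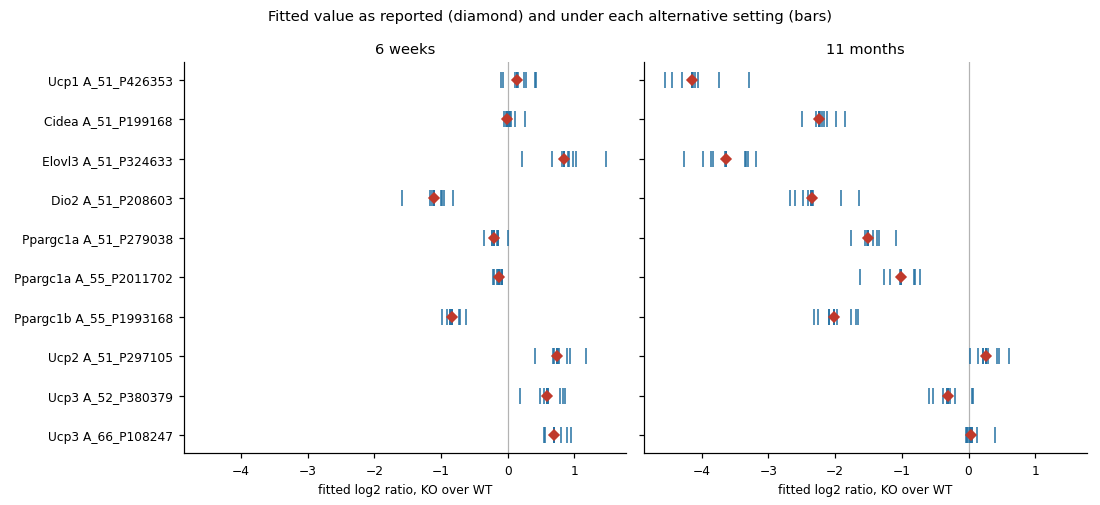
Fitted log2 ratio of KO over WT for each thermogenic probe as reported (red diamonds) and under every alternative setting (blue bars), at 6 weeks (left) and 11 months (right). The bars of the 6 genes called at 11 months stay below 0, those of Ucp1 between -4.56 and -3.30.

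The KO-over-WT ratio differed between the ages in 5 of the 8 genes, lower at 11 months in each, where 11.1% of all probes were. The difference (11 months minus 6 weeks) was -4.48 ± 0.68 for Elovl3 (adjusted p = 0.00596), -4.28 ± 0.70 for Ucp1 (adjusted p = 0.00745) and -2.24 ± 0.25 for Cidea (adjusted p = 0.00257). For the brighter Ppargc1a probe it was -1.30 ± 0.25 (adjusted p = 0.0122), while the dimmer one, at -0.88 ± 0.27, was not called (adjusted p = 0.0536). For Ppargc1b it was -1.18 ± 0.33 (adjusted p = 0.0417), a call that ended in 9 of 19 alternatives. Elovl3 had the second lowest difference of all 26905 probes and Ucp1 the third lowest. Dio2 differed by -1.25 ± 0.65 (adjusted p = 0.21), Ucp2 by -0.48 ± 0.42 (adjusted p = 0.46), and Ucp3 by -0.66 ± 0.24 with probe A_66_P108247 (adjusted p = 0.0888) and -0.90 ± 0.49 with the other (adjusted p = 0.228). The Cidea call ended when the dye coefficient was left out (adjusted p = 0.0842). Without 11-month-old array 3 the difference of Ucp1 was -3.43 (adjusted p = 0.00143), and without 6-week-old arrays 1 and 3 in turn that of Elovl3 was -3.84 and -5.10 (adjusted p = 0.0107 and 0.00723).

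Mean levels at the 2 ages came from separate runs, so that no test was made of them and age and run cannot be told apart. For Ucp1 the mean level was 14.44 ± 1.71 at 11 months and 17.69 ± 0.16 at 6 weeks in KO tissue (SD, n = 4 each). In WT tissue it was 18.59 ± 0.24 at 11 months and 17.56 ± 0.22 at 6 weeks. The KO mean was thus the lower at 11 months and the WT mean the higher. For Elovl3 the 11-month mean stood 2.60 below the 6-week mean in KO tissue and 1.88 above it in WT tissue. For Dio2 the 11-month mean stood higher in both genotypes, by 2.09 in KO and 3.34 in WT. For Ppargc1b the KO mean stood 1.36 lower and the WT mean 0.18 lower.

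Upstream sequence is shown for the 3 genes called lower at 11 months that have an entry in the RefSeq promoter table (build GRCm38.p6), which held 5 of the 8 genes. Shown are the 250 bases before the annotated start, on the strand of the gene, with matches in capitals to the cAMP response element TGACGTCA, its shorter core TGACG, the CCAAT box, the TATA box TATAAA and the nuclear receptor element AGGTCA, searched on both strands. The core lies within the full element, so that a full match also counts as a core match. The windows are chr8:83290098-83290347 (Ucp1, plus strand), chr12:90739039-90739288 (Dio2, minus strand) and chr5:51567726-51567975 (Ppargc1a, minus strand).
Ucp1: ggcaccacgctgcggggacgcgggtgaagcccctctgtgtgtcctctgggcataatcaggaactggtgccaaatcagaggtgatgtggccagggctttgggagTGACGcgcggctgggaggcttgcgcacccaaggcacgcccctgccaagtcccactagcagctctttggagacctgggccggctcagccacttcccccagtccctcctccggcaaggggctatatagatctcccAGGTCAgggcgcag
Dio2: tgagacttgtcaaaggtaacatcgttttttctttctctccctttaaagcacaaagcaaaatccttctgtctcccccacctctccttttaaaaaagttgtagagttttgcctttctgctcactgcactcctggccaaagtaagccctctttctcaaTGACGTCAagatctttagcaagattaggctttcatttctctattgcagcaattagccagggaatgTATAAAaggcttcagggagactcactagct
Ppargc1a: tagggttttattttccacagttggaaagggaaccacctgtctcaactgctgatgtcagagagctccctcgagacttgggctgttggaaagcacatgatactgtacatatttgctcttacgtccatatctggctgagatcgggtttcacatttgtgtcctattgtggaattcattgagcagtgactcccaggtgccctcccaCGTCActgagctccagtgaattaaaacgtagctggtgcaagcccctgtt
Dio2 held the full TGACGTCA from base -95 to -88, which 1.55% of the 32851 promoters of the table hold in the same window, and TATAAA from -30 to -25, which 12.4% hold. Ucp1 held TGACG at -147 and AGGTCA at -14, and Ppargc1a held TGACG on the opposite strand at -49. TGACG is held by 17.8% of all promoters, the element AGGTCA by 14% and the CCAAT box, found in none of the 3, by 33.8%. Of the other genes with an entry, neither of which was called at 11 months, Ucp2 held TGACG on the opposite strand at -62 and Ucp3 held AGGTCA at -149 and -44. These are matches of letters only.

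The adrenergic and cyclic AMP pathway induces the thermogenic genes. Of 16 genes in it, 4 were higher and 2 lower in KO at 6 weeks, where 8.58% of all probes were higher and 6.14% lower. At 11 months 4 were higher and 8 lower, with a median of -0.29, where 20.7% of all probes were higher and 19.3% lower. Adrb3, the beta3-adrenergic receptor, rose by 0.83 ± 0.14 at 6 weeks (adjusted p = 0.011) and 1.11 ± 0.14 at 11 months (adjusted p = 0.000725). Adrb1, the beta1-adrenergic receptor, stood at 1.08 ± 0.19 at 6 weeks (adjusted p = 0.0126) and -0.95 ± 0.19 at 11 months (adjusted p = 0.00588), a difference of -2.03 ± 0.27 (adjusted p = 0.004). Adcy5, an adenylyl cyclase, rose by 2.54 ± 0.14 at 6 weeks (adjusted p = 0.000213) and 3.35 ± 0.14 at 11 months (adjusted p = 1.44e-05). Gnas, which encodes the stimulatory G protein alpha subunit, fell by 1.16 ± 0.18 at 6 weeks (adjusted p = 0.00858) and 2.13 ± 0.18 at 11 months (adjusted p = 0.000146). Adcy3, another adenylyl cyclase, fell by 1.53 ± 0.15 at 11 months (adjusted p = 0.000284), and Pde4d, a phosphodiesterase that breaks down cyclic AMP, fell by 1.44 ± 0.11 (adjusted p = 7.98e-05).

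Of 19 partners and relays of the PGC-1 coactivators, 9 were lower, 3 higher and 7 not called at 11 months, with a median of -0.35. Of all probes, 19.3% were lower and 20.7% higher at that age. At 6 weeks 2 were lower and 3 higher, where 6.14% of all probes were lower and 8.58% higher. Ppara, a nuclear receptor of fatty acid oxidation, stood at -2.16 ± 0.46 at 11 months (adjusted p = 0.0078). Sirt3, a mitochondrial deacetylase, stood at -1.89 ± 0.18 (adjusted p = 0.000199), and Perm1, a muscle and brown fat regulator of mitochondrial genes, at -2.54 ± 0.38 (adjusted p = 0.00159). Perm1 was already lower at 6 weeks, at -1.42 ± 0.38 (adjusted p = 0.046). The largest change of the list at 6 weeks was that of Esrrb, higher at 1.945 ± 0.191 (adjusted p = 0.00166). Esrrb was not called at 11 months, at 0.02 ± 0.19 (adjusted p = 0.958), and differed between the ages by -1.93 ± 0.27 (adjusted p = 0.00464). Prkaa2 was also higher at 6 weeks, at 0.74 ± 0.09 (adjusted p = 0.00343). Nrip1, a corepressor that acts against PGC-1alpha, was higher at both ages, by 1.22 ± 0.23 at 6 weeks (adjusted p = 0.0152) and 2.24 ± 0.23 at 11 months (adjusted p = 0.000286).

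Of 12 tested genes of thyroid hormone transport and response, which act with DIO2, 1 was higher at 6 weeks, and 3 were higher and 3 lower at 11 months, with a median of -0.04. Of 16 tested relatives of the members, 2 were higher and 1 lower at 6 weeks, and 4 were higher and 4 lower at 11 months. At 11 months the shares of both lists lay near those of all probes (20.7% higher and 19.3% lower). At 6 weeks 8.58% of all probes were higher and 6.14% lower. Cidec, a lipid droplet protein of white fat and relative of Cidea, rose by 1.76 ± 0.12 at 11 months (adjusted p = 6.98e-05), while Cideb fell by 2.15 ± 0.17 (adjusted p = 0.000116). Cideb was already lower at 6 weeks, by 1.42 ± 0.17 (adjusted p = 0.00361). Its difference between the ages, -0.73 ± 0.24, was not called (adjusted p = 0.0723). Elovl1, an elongase of saturated very long-chain fatty acids, rose by 0.60 ± 0.10 at 6 weeks (adjusted p = 0.0103) and 1.43 ± 0.10 at 11 months (adjusted p = 6.65e-05). Elovl6, which elongates palmitate, stood at 1.43 ± 0.29 at 6 weeks (adjusted p = 0.0184) and -1.29 ± 0.29 at 11 months (adjusted p = 0.00894), a difference of -2.73 ± 0.40 (adjusted p = 0.00539).

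**Figure D4:**
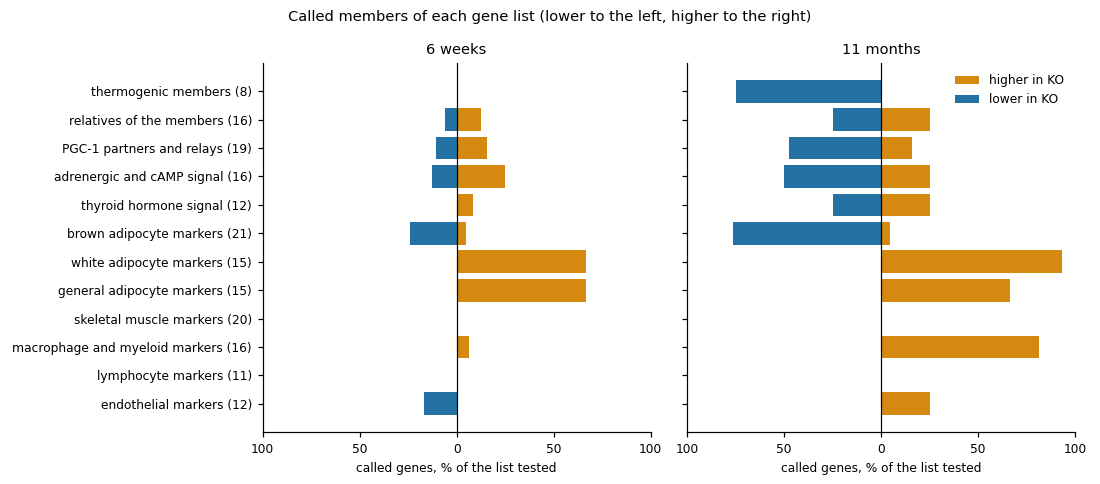
Share of the tested genes of each list that was called lower (blue, to the left) or higher (orange, to the right) in KO tissue at 6 weeks and 11 months, with the number tested in brackets. At 11 months 6 of the 8 thermogenic genes were lower, and 14 of 15 white adipocyte markers were higher, where 19.3% of all probes were lower and 20.7% higher. Members and lists were chosen with earlier results of these data known.

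Marker genes of brown adipocytes were mostly lower in KO tissue at 11 months and mostly not called at 6 weeks. Of 21 markers, which include Ucp1 and Cidea themselves, 5 were lower and 1 higher in KO at 6 weeks, and 16 were lower and 1 higher at 11 months. Of all probes, 6.14% were lower and 8.58% higher at 6 weeks, and 19.3% were lower and 20.7% higher at 11 months. Their median ratio was -0.61, -0.29, -0.42 and -0.29 on the 6-week-old arrays and -1.61, -1.96, -3.95 and -1.32 on the 11-month-old arrays. The value of -3.95 on array 3 is the ratio of Cidea itself before adjustment for dye, which was -2.89 after it. At 11 months the 1 called higher was Eva1b, at 0.33 ± 0.08 (adjusted p = 0.0132). Zic1, Lhx8 and Ebf2 were not called there, at 0.08, 0.48 and -0.42 (adjusted p = 0.664, 0.0706 and 0.108). Kng2 and Kng1, kininogen genes, had the lowest values of the 21 at 11 months. They stood at -4.61 ± 0.35 (adjusted p = 9.03e-05) and -4.26 ± 0.39 (adjusted p = 0.000194). Both were already lower at 6 weeks, at -1.94 ± 0.35 (adjusted p = 0.0131) and -1.80 ± 0.39 (adjusted p = 0.0238). Bmp8b, a secreted factor of brown fat, stood at 2.65 ± 0.38 at 6 weeks (adjusted p = 0.0065). It was not called at 11 months, at -0.47 ± 0.38 (adjusted p = 0.373), and its difference between the ages was -3.11 ± 0.54 (adjusted p = 0.00911). Of 15 white adipocyte markers, 10 were higher at 6 weeks and 14 at 11 months. The lists were chosen with earlier results of these data known, so that their shares beside those of all probes are description only. General adipocyte markers were higher in 10 of 15 genes at each age, Adipoq among them at 1.42 ± 0.08 at 11 months (adjusted p = 3.38e-05). Endothelial markers were lower in 2 of 12 at 6 weeks and higher in 3 of 12 at 11 months, the latter near the share of all probes. Limma called none of 11 lymphocyte markers, with unadjusted p below 0.05 for 1 at 6 weeks and 2 at 11 months.

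For each member the 3 genes most alike over the 8 arrays, by Pearson's r of the dye-adjusted ratio, were taken as a description. Their r is the highest among all kept probes with a gene symbol, over only 8 arrays. It takes no account of the size of a change. The arrays share 2 runs and the ratios differ between them. For Ucp1 they were Fuom, Pgap4 and Ide (r = 0.999, 0.998 and 0.997), with fitted values at 11 months of -1.42, -2.36 and -0.97. For Cidea they were Ndufb5, Atp5mpl and Mtres1 (r = 0.999, 0.998 and 0.998), at -1.54, -0.92 and -1.19. For Elovl3 they were Lsm6, Atp6v1g3 and Pdzk1ip1 (r = 0.998, 0.996 and 0.993), of which Lsm6 stood at -0.25 and the others at -0.14 and -0.02. For the brighter Ppargc1a probe they were Nrgn, Gm16483 and 1700095A13Rik, and for Ppargc1b Ppa2, Tmem259 and Srr (r = 0.995 each). The genes most alike to Dio2 were Gm4980, Htt and Gm5809, to Ucp2 1700121C10Rik, Trmt13 and Utp4, and to the brighter Ucp3 probe Atp13a3, Odc1 and Gm4704, with r from 0.968 to 0.994.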

How the data were processed

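The deposited tables, per the file headers read by Agilent Feature Extraction 10.5.1.1 (6 weeks) and 10.10.1.1 (11 months), hold mean foreground and median background intensity per spot and channel, on a design annotated to mm9. Per the file headers they also hold the software's log10 ratio of Cy5 over Cy3 after its own background subtraction and dye normalization. The deposited value table holds log2 ratios. The submitters' processing notes name limma, with no settings stated there. Set against the scanner values, its log2 ratios followed KO over WT (r = 0.987 to 0.993 with the ratios computed here). It served as an alternative.

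From the intensities, background was corrected with normexp (offset 50) and ratios were normalized by loess within arrays (R 4.3.3 with limma 3.58.1, jsonlite 2.0.0 and data.table version 1.17.8). A local background over 3 times the median of its array and channel was replaced by that median, in 10 readings in all. This was chosen after seeing the data, because such spots shifted the normexp fit of 11-month-old array 3. Control spots had weight 0, spots that the software marked as outliers were dropped (131 to 247 on an array), and spots of a probe were averaged. A probe was kept if well above background in at least 4 of 16 channels and present on 3 or more arrays at both ages. From 61.2% to 68.2% of spots per channel were well above background. The number of arrays limits precision. Levels per channel were set across arrays with Aquantile normalization. A list took the brightest kept probe of each gene. The model left 5 residual degrees of freedom, and the dye coefficient passed in 1134 probes.

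The fit was tested on simulated data. Named genes were the members, Prdm16, the most changed genes of each list and comparison (up to 4 called ones, or 2 in all if at most 1 was called), of which not all are given, and the 3 genes most alike to each member. The members and the lists were chosen with earlier results of these data known.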

Additional observations from a re-analysis of the deposited data

Results flagged for a closer look

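Single samples stood apart from the other 3 of their group in 3 of the 66 groups of 4 values tested, by a gap to the nearest sample that Dixon's test puts above its critical value. Chance flags about 1 in 20 such groups. The ratio of Ucp1 on 11-month-old array 3 was -6.61 (gap 0.889 of the range). The level of Ucp2 in the KO sample of the same array was 11.41 (0.858), and the level of Ucp3 probe A_66_P108247 in the WT sample of 6-week-old array 1 was 9.78 (0.957).

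The KO-over-WT ratio differed between the ages by the test of the difference itself (11 months minus 6 weeks) for Ucp1 (-4.28), Cidea (-2.24), Elovl3 (-4.48), the brighter Ppargc1a probe (-1.30) and Ppargc1b (-1.18). Age and run cannot be told apart here.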

How the results depend on the processing

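The 6 calls at 11 months kept their direction and their side of the threshold under every alternative tried. Over all thermogenic probes, Prdm16 and the 3 comparisons, 575 of 643 fitted values under an alternative kept both, 20 lost a call, 26 gained one and 22 changed sign, the last only among values not called. Genes are counted here by their brightest probe, which leaves out the 6-week call of Ucp3 probe A_66_P108247. At 6 weeks none of the 8 genes was called. With the strict filter on dim probes or the local background as deposited 1 was called. With a dye coefficient per age 2 were called, with each age modelled alone 3, and without single arrays 0 to 2. Between the ages 5 were called, and 4 to 5 without single arrays. Over all probes, 3961 calls at 6 weeks became 1172 to 4907 without single arrays (1172, 1808, 1483 and 1953 without 6-week-old arrays 1, 2, 3 and 4) and 2035 with the muscle median as a covariate. Calls between the ages (5477) became 2831 to 5193 without single arrays and 3620 with that covariate, and calls at 11 months (10746) became 7885 to 10617.

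The sign changed for Cidea at 6 weeks with the scanner software's ratio (0.10), median centring (0.26), the deposited table (0.0175) and the muscle covariate (0.016), and it ranged from -0.057 to 0.046 without single arrays. It changed for Ucp3 at 11 months with probe A_66_P108247 under the scanner software's ratio (-0.029; -0.043 to 0.132 without single arrays) and with probe A_52_P380379 under median centring (0.058; -0.597 to 0.073). It changed for the brighter Ppargc1a probe at 6 weeks under median centring (0.011) and for Ucp1 at 6 weeks without single arrays (-0.10 to 0.43). The difference of Prdm16 between the ages changed sign with median centring (0.19), the deposited table (0.003), the muscle covariate (0.0596) and the local background as deposited (0.073), and ranged from -0.25 to 0.17 without single arrays. The causes were not tested.

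No pairing by replicate number was seen (same-number correlation of deviations over probes -0.14 to -0.01, or 0.02 to 0.09 with dye removed, with no array closest to its own number). The check cannot decide whether samples were paired. Same-number arrays carry opposite dyes at the 2 ages. With dye removed, arrays 1 and 2 of an age have mirrored deviations, as do arrays 3 and 4. With the replicate block, 2 of the 8 genes were called by their brightest probe at 6 weeks, 6 at 11 months and 6 between the ages. Of all probes, 4620, 11194 and 5979 were called. Dim probes are limited by signal over background.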
